A study of Bos taurus with 12 samples.

Results

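Laminins and nidogens are the core glycoproteins of basement membranes, and their transcripts were followed here through the wall of the growing bovine ovarian follicle. The genes were taken by symbol, as NID1, NID2 and every LAMA, LAMB or LAMC symbol that ends in 1 digit, and 13 probe sets carried such a symbol in the annotation of the array. They stood for 7 of the 9155 genes named on it, namely NID1, NID2, LAMA4, LAMB1, LAMB2, LAMB3 and LAMC1. Of the 13 probe sets, 6 belonged to LAMC1 and 2 to LAMA4.

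RNA came from granulosa cells, the epithelial layer that lines the follicle, and from theca cells, the vascularised layer outside its basal lamina. Each layer was sampled from small follicles (up to 5 mm across), medium follicles (5 to 10 mm) and large follicles (above 10 mm), with 2 arrays per layer and size and 12 arrays in all. The ovaries were untreated and came from young cycling heifers that were not pregnant, in the follicular stage of the cycle. Each RNA sample was a pool of 20 to 40 follicles, so the p-values measure the spread between pools and not between animals. The study's outline counts ovaries rather than follicles, 20 to 40 per pool and taken from 6 to 10 animals, and does not say whether an animal could enter more than 1 pool.

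A laminin is a trimer of 1 alpha, 1 beta and 1 gamma chain, and the trimers join through their short arms into a sheet on the cell surface. Nidogens 1 and 2 bind the laminin gamma 1 chain and collagen IV, and so tie the laminin sheet to the collagen network, with the proteoglycan perlecan as a further link. In the follicle, the granulosa layer is bounded by such a membrane, and the vessels and smooth muscle of the theca have basement membranes of their own. In large bovine follicles, patches of similar matrix, called focimatrix, also form between granulosa cells.

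The arrays bore out their titles. Of 10 granulosa markers 7 were higher in granulosa, with summed signals of 20420 to 30690 on granulosa arrays and 9222 to 24730 on theca arrays, and KRT8 stayed under the filter signal of 22.5 on all 6 theca arrays. Of 6 markers of theca steroid cells 5 were lower in granulosa, with sums of 1905 to 3416 on granulosa arrays against 13850 to 22420 on theca arrays. Over all tested probe sets 13.2% were called higher and 11% lower in granulosa. The description field names theca for every sample, and the titles were followed. A pair of arrays stood apart. Theca small replicate 1 had a GAPDH 3' over 5' ratio of 8.36, against 0.984 to 1.30 on the others, and granulosa large replicate 1 had an actin ratio of 21.0 and a median signal of 48.8, against at most 11.2 and 39.2 elsewhere.

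The filter required a group mean above a signal of 22.5, which is the 40th percentile over the whole table, in 1 group or more, and 10 of the 13 passed, for 6 of the 7 genes. NID1 and LAMA4 passed through their theca groups alone. Changes below are differences in log2(signal + 16) ± standard error of a limma model over all 12 arrays, with n = 2 arrays per group. The added 16 understates the change of dim transcripts. A difference counted as called where its p, adjusted by Benjamini-Hochberg over the 17478 tested probe sets, was under 0.05. Signals of different probe sets are not comparable with each other, so the change of each is measured against itself only. The summed signals of marker lists add different probe sets and weigh the brightest most. On theca arrays INSL3 alone gave 7810.6 to 12716.5, beside sums of 13850 to 22420 for the theca steroid cell markers.

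**Figure D1:**
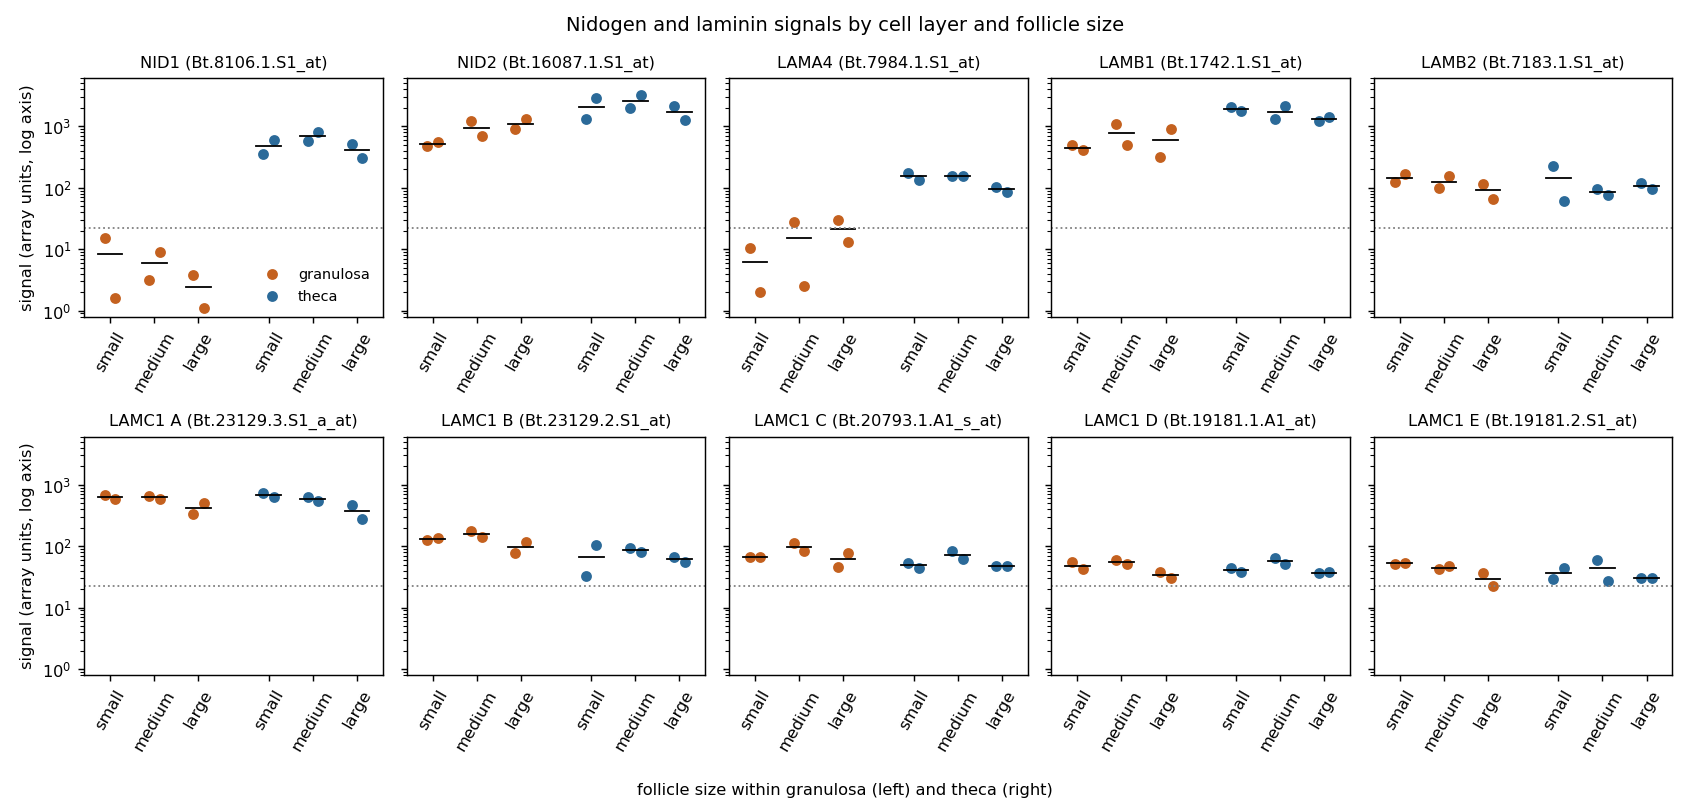
Signal of the 10 tested probe sets on each of the 12 arrays (points, logarithmic axis in array units), with granulosa in orange at the left and theca in blue at the right of each panel; black bars are group means and the dotted line is the filter signal of 22.5. NID1 stays at or below 15.2 on all granulosa arrays and at or above 308.4 on all theca arrays, while the LAMC1 and LAMB2 panels show overlapping layers.

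Over all sizes, NID1, LAMA4, LAMB1 and NID2 were lower in granulosa than in theca, and 1 probe set of LAMC1 was higher. That is 4 of 10 tested probe sets called lower, where 11% of all tested probe sets were, and 1 of 10 called higher, where 13.2% were. NID1 and LAMA4 had entered the tested set through their theca groups alone, which favours a lower call, so the counts are a description only. The median change of the 10 was 0.04, beside 0.10 over all tested probe sets. On NID1, LAMA4 and LAMB1 no granulosa array overlapped any theca array, which held as a lower signal for 5.15% of all tested probe sets. Among all calls the share that was higher in granulosa was 54.5%, and 44.1% after each array was centred on its median; the 5 laminin and nidogen calls kept their directions under both. Layers of bulk tissue were compared, so fewer cells of a type and less RNA per cell cannot be told apart.

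NID1, the first of the 2 nidogens, had the largest change of the 10 probe sets. Granulosa arrays gave signals of 15.2 and 1.6 in small follicles, 3.1 and 8.9 in medium and 3.8 and 1.1 in large ones. Theca arrays gave 357.5 and 589.6 in small follicles, 565.6 and 820.1 in medium and 517.7 and 308.4 in large ones. Every granulosa value lay under the filter signal, and the lowest theca signal was 20.3 times the highest granulosa signal. The change was -4.61 ± 0.23, a 24.5-fold difference on that scale (adjusted p = 3.02e-08), and NID1 ranked 6 by p among all 17478 probe sets. It was called in each size, with -4.34 ± 0.40 in small (adjusted p = 3.67e-05), -5.0 ± 0.40 in medium (adjusted p = 1.02e-05) and -4.50 ± 0.40 in large follicles (adjusted p = 3.23e-05). Since the granulosa signals are near the floor of the array, these folds depend on the added constant, from -3.03 with 64 to -6.62 with 1. The theca mean was 23.4 times the filter signal.

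NID2, the second nidogen, was present in both layers. Granulosa gave 480.7 and 552.1 in small follicles, 1200.7 and 683.8 in medium and 911.6 and 1292.7 in large ones. Theca gave 1306 and 2832.5 in small follicles, 2017.2 and 3191.8 in medium and 2117.7 and 1267.8 in large ones. The layers met only in large follicles, where granulosa replicate 2 (1292.7) exceeded theca replicate 2 (1267.8). NID2 was lower in granulosa over all sizes, with a change of -1.31 ± 0.25, or 2.48-fold (adjusted p = 0.00227). By size the change was -1.87 ± 0.44 in small follicles (adjusted p = 0.0185), -1.47 ± 0.44 in medium (adjusted p = 0.0689) and -0.59 ± 0.44 in large (adjusted p = 0.473), so that only the small follicles passed. The call in small follicles was lost without either granulosa small array (adjusted p = 0.0918 without replicate 1 and 0.0942 without replicate 2) and without theca small replicate 2 (0.0875). In medium follicles NID2 passed without theca small replicate 1 or theca small replicate 2 (adjusted p = 0.0367 for each) and without both arrays that stand apart (adjusted p = 0.0323).

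The nidogens shared their order on the theca arrays at both ends. Theca medium replicate 2 was highest and theca small replicate 2 next for each of them, and theca large replicate 2 was lowest with theca small replicate 1 above it. No such order could be read in granulosa, where NID1 was under the filter signal. From high to low, the group means of NID2 ran theca medium, theca small, theca large, granulosa large, granulosa medium, granulosa small. No 2 neighbours in that order differed by more than the spread allowed (adjusted p from 0.473 to 1).

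LAMA4 encodes the laminin alpha 4 chain, which is typical of the basement membranes of vessels and muscle, and was the only alpha chain among the measured genes; other alpha chains were not analysed here. Granulosa signals were 10.4 and 2.0 in small follicles, 27.9 and 2.5 in medium and 30.0 and 13.3 in large ones. Theca signals were 174 and 134 in small follicles, 155.3 and 156 in medium and 102.4 and 85.5 in large ones. Theca was above granulosa on every array, and 4 of the 6 granulosa arrays were under the filter signal. The change over all sizes was -2.37 ± 0.24, or 5.18-fold (adjusted p = 9.27e-06), a size that depends on the added constant, from -1.34 with 64 to -3.61 with 1. It was -2.95 ± 0.41 in small (adjusted p = 0.000622), -2.59 ± 0.41 in medium (adjusted p = 0.0015) and -1.58 ± 0.41 in large follicles (adjusted p = 0.0459). The last of these stood at the threshold: the change for LAMA4 in large follicles remained negative without any 1 array, but the adjusted p ran from 0.0258 to 0.236 and was under 0.05 in 4 of 12 such fits. A second LAMA4 probe set did not pass the filter and gave 0.3 to 17.7 in granulosa and 1.1 to 32.6 in theca, with overlapping layers.

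LAMB1, the beta 1 chain found in most embryonic and many adult basement membranes, was bright in both layers. Granulosa gave 487 and 406.9 in small follicles, 1084.1 and 490.4 in medium and 314 and 902.8 in large ones. Theca gave 2056 and 1802.7 in small follicles, 1298.3 and 2133.3 in medium and 1228.3 and 1438.4 in large ones. The highest granulosa array, medium replicate 1, came close to the lowest theca array, large replicate 1, at a theca over granulosa ratio of 1.13. LAMB1 was lower in granulosa, with a change of -1.51 ± 0.28, or 2.85-fold (adjusted p = 0.00149). In small follicles the change was -2.07 ± 0.48 (adjusted p = 0.0167), and it was lost without either granulosa small array (0.0646 without replicate 1 and 0.124 without replicate 2) or theca small replicate 1 (0.0922). Medium follicles gave -1.17 ± 0.48 (adjusted p = 0.197) and large follicles -1.29 ± 0.48 (adjusted p = 0.144), below the threshold for a call. Without granulosa large replicate 2, the higher of its pair, the large follicles gave -2.03 (adjusted p = 0.0347), and without replicate 1, which stands apart, -0.55 (adjusted p = 0.637).

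The other beta chains did not separate the layers. LAMB2, the beta 2 chain that takes the place of beta 1 in mature membranes of the kidney glomerulus and the nerve-muscle junction, gave 125.3 and 164.2, 97.7 and 152.3, and 116.4 and 65.9 in small, medium and large granulosa. Its theca signals were 228.4 and 60.5, 94.4 and 75.3, and 120.1 and 96.4. The widest replicate gap was in small theca, between 228.4 on the array with the raised GAPDH ratio and 60.5 on its partner. The layer change of LAMB2 was 0.15 ± 0.27 (adjusted p = 0.724), and it was 0.42 without theca small replicate 1 and -0.13 without theca small replicate 2. LAMB3, the beta 3 chain of epithelial anchoring laminin in skin, did not pass the filter: its signals were 3.5 to 16.7 in granulosa and 1.1 to 17.1 in theca, under the filter signal on all 12 arrays.

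LAMC1 encodes the gamma 1 chain, which most laminins contain and to which nidogens bind. It had 6 probe sets, called A to F here, and A to E were tested, which is 5 of the 6. The plots give their array identifiers. Probe set A, with the highest mean signal of them, gave 687.3 and 590.8 in small, 667.8 and 581.8 in medium, and 332.9 and 503.4 in large granulosa. In theca it gave 732.4 and 633.9, 634.1 and 553.9, and 468.8 and 276. The layers overlapped, and the layer change of 0.05 ± 0.20 was far from a call (adjusted p = 0.871).

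LAMC1 probe set B was higher in granulosa. It gave 126.9 and 133.8 in small, 174.6 and 142.6 in medium, and 76.7 and 118.2 in large granulosa, against 32.3 and 103.6, 92.1 and 80.4, and 66.9 and 54.7 in theca. Within each size the granulosa arrays lay above the theca arrays, as they did for 25.7% of all tested probe sets in small follicles, 30.3% in medium and 32.7% in large ones, though over all sizes granulosa large replicate 1 fell among the theca values. The change was 0.75 ± 0.23, or 1.68-fold (adjusted p = 0.0289), with 0.94 ± 0.40 in small follicles, 0.77 ± 0.40 in medium and 0.54 ± 0.40 in large ones, none of these called. The low theca value of 32.3 was on theca small replicate 1, the array with the raised GAPDH ratio, and without that array the change was 0.53 over all sizes (adjusted p = 0.0568) and 0.29 in small follicles (adjusted p = 0.676). Without its partner, theca small replicate 2, the change in small follicles was 1.60 (adjusted p = 0.014). The call for probe set B was kept in 3 of 12 fits that left out 1 array, with adjusted p-values from 0.00246 to 0.0826.

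The other LAMC1 probe sets gave no call. Probe set C, whose identifier ends in a suffix for probes that may bind transcripts of more than 1 gene, gave 46.3 to 113.8 in granulosa and 43.4 to 83.1 in theca, with a layer change of 0.32 ± 0.19. Probe set D gave 30.9 to 59.1 in granulosa and 36.2 to 63.1 in theca, with 0.02 ± 0.17, a sign that turned under other scalings. Probe set E gave 22.2 to 52.6 in granulosa and 27.6 to 59.6 in theca, with 0.15 ± 0.20. None of them was called (adjusted p from 0.222 to 0.94). Probe set F was under the filter signal on all 12 arrays, at 1.0 to 19.9 in granulosa and 7.3 to 16.7 in theca. All 5 tested LAMC1 probe sets thus had a change above 0 over all sizes, and 1 of them was called. The median over all tested probe sets was also above 0, at 0.1, and probe sets A and D lay below it. The signs of A and D turned under some alternatives, and probe sets of the same gene are not independent.

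**Figure D2:**
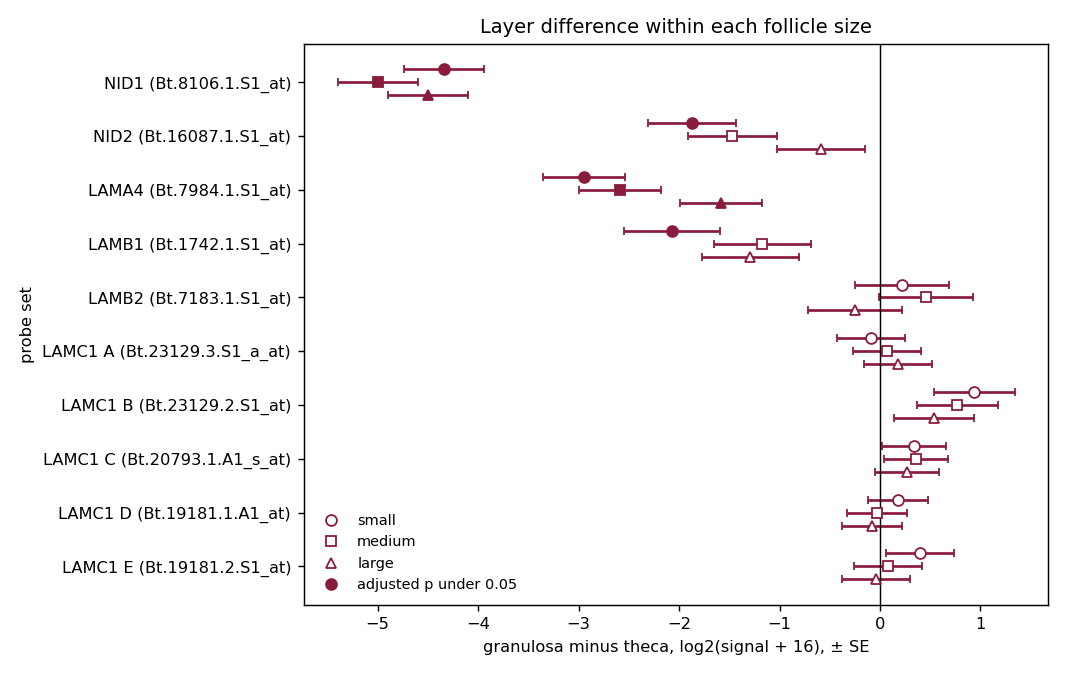
Granulosa minus theca change in log2(signal + 16), with standard error, for each of the 10 tested probe sets in small (circles), medium (squares) and large (triangles) follicles; filled symbols passed an adjusted p of 0.05. NID1 lies between -5.0 and -4.34, LAMA4 between -2.95 and -1.58, and NID2 is at -1.87 in small and -0.59 in large follicles.

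Counted by size, 4 of 10 probe sets were lower in granulosa in small follicles, namely NID1, NID2, LAMA4 and LAMB1, where 4.98% of all tested probe sets were called lower. In medium follicles NID1 and LAMA4 were called lower, 2 of 10 against 4.09%, and the same pair in large follicles, 2 of 10 against 2.34%. Both entered the tested set through their theca groups alone, which favours a lower call, so these counts are a description only. None of the 10 was called higher within a size, against 3.97% of all probe sets in small follicles, 1.71% in medium and 1.91% in large ones. At an unadjusted p under 0.05, 5 of the 10 differed in small follicles, where 25.3% of all tested probe sets did, 4 in medium, against 18.2%, and 3 in large, against 20.8%. Without both arrays that stand apart the adjusted calls were 4 of 10 in small follicles, 3 in medium and 1 in large ones. The calls over all probe sets moved too, to 785 without those arrays against 1564 with them in small follicles, 1595 against 1014 in medium and 511 against 743 in large.

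Many markers of other cells of the theca were also lower in granulosa over all sizes, where 11% of all tested probe sets were called lower. Of 9 endothelium markers, 7 were called lower in granulosa over all sizes among 8 tested, with summed signals of 142.8 to 542.7 on granulosa arrays and 453.3 to 1718 on theca arrays. VWF, TIE1 and KDR were under the filter signal on all 6 granulosa arrays, and KDR on all theca arrays as well. Of 8 pericyte and smooth muscle markers 6 were lower, with sums of 1645 to 6313 in granulosa against 10740 to 21480 in theca, and RGS5 was under the filter signal on all 6 granulosa arrays. Of 8 fibroblast markers 7 were lower, with sums of 1972 to 8991 in granulosa against 22880 to 31330 in theca. In large follicles 0 of the 8 tested endothelium markers were called, at a median change of -0.45. There 4 of 8 pericyte and smooth muscle markers and 5 of 8 fibroblast markers were called lower, where 2.34% of all tested probe sets were. No marker was listed at 0 on any array. The part of these cells in the layer differences of NID1, NID2, LAMA4 and LAMB1 was not tested.

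**Figure D3:**
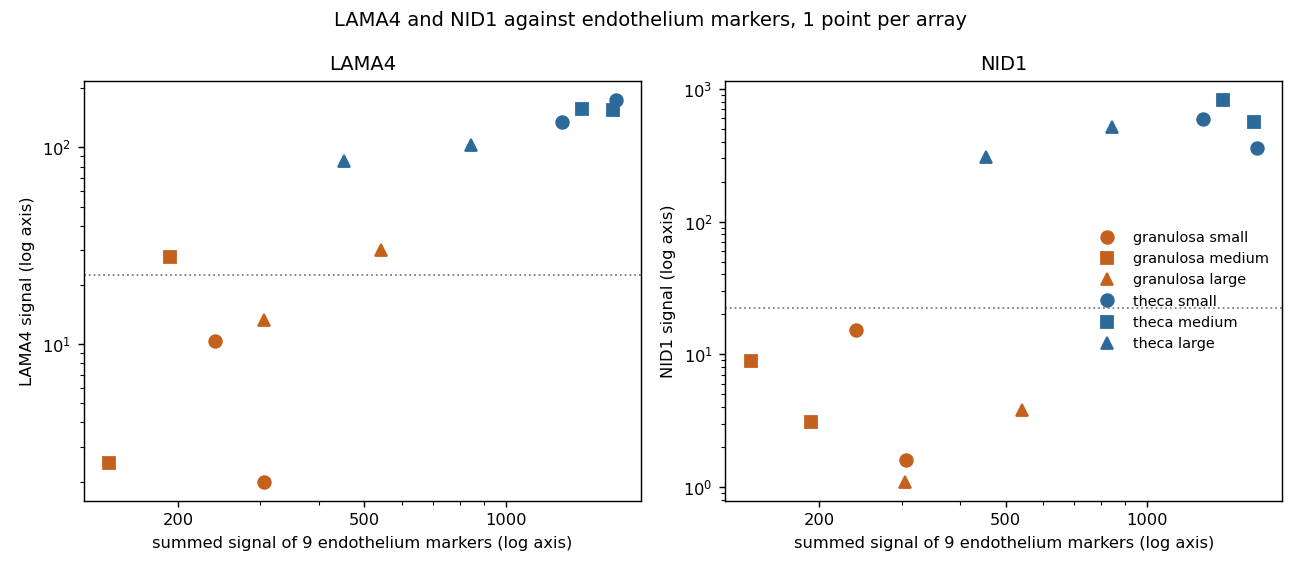
Signals of LAMA4 (left) and NID1 (right) against the summed signal of 9 endothelium markers on each of the 12 arrays, both axes logarithmic and in array units; granulosa is orange, theca blue, and the dotted line is the filter signal of 22.5. On theca arrays LAMA4 is lowest on the large follicle arrays (102.4 and 85.5), which also have the lowest endothelium sums. The sums of the layers overlap through 1 granulosa array (542.7) and 1 theca array (453.3).

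As follicles grew, no laminin or nidogen probe set passed in either layer. The 6 size comparisons gave 60 values for the 10 tested probe sets, from -0.89 to 1.05, and limma called 0 of them. The lowest adjusted p was 0.282, and 2 of the 60 had an unadjusted p under 0.05, as had 8.07% of the values of all tested probe sets. Calls were few for all genes as well: 2.16% of all tested probe sets in large against small granulosa, 0.664% in large against medium granulosa and 0.00572% in medium against small granulosa. In theca they were 0.0343%, 0% and 0.0114% for the same pairs. Single arrays moved these numbers: large against small granulosa had 378 calls, but 0 when large replicate 1 of granulosa was left out and 663 when large replicate 2 was. Leaving out the small granulosa arrays gave 2 calls for replicate 1 and 61 for replicate 2. With 2 arrays per group, a change of the size seen here could go uncalled, so these values do not show that the genes were level.

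NID2 had the highest size change. Its granulosa signals, listed above, were higher in large than in small follicles on both arrays, and the change was 1.05 ± 0.44 in large against small (unadjusted p = 0.0311, adjusted p = 0.282) and 0.80 ± 0.44 in medium against small follicles. Neither group overlapped the small arrays, which was so, as a higher signal, for 21.9% of all tested probe sets in the first comparison and 13% in the second. LAMB1 gave 0.69 ± 0.48 in medium against small granulosa, where replicate 1 of the medium arrays (1084.1) was far above replicate 2 (490.4). LAMB2 gave -0.62 ± 0.47 in large against small granulosa (adjusted p = 0.596). In the large granulosa arrays leukocyte markers were raised, with sums of 4073 and 10560 in large against 364.1 and 382.6 in small follicles. All 8 of them were called higher, although no probe set of the array was called in that comparison without granulosa large replicate 1. Fibroblast marker sums on replicates 1 and 2 were 4783 and 6444 in small, 8991 and 1972 in medium and 4048 and 7558 in large granulosa. Within medium and large follicles the array with the higher sum also had the higher LAMB1 and NID2 signal. In small follicles this held for NID2 (480.7 and 552.1) but not for LAMB1 (487 and 406.9). Pericyte and smooth muscle sums were 2145 and 6313 in large granulosa. The part of these cells in the granulosa values was not tested.

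LAMC1 was lower in large than in medium follicles on every tested probe set in both layers, without passing the test. In granulosa the 5 values ran from -0.64 to -0.43, and the large arrays lay below the medium arrays on 5 of 5 probe sets, against 18.1% of all tested probe sets (adjusted p from 0.553 to 0.708). In theca they ran from -0.69 to -0.31, with 4 of 5 not overlapping, against 21.9% of all probe sets (adjusted p of 1 for each). The 5 probe sets read transcripts of the same gene on the same arrays and are not independent. The direction was not particular to LAMC1. Of all 10 tested laminin and nidogen probe sets, 8 were lower in large than in medium granulosa and 9 in theca. In theca LAMA4 gave -0.65 ± 0.41 and NID2 -0.63 ± 0.44. One theca value of LAMC1, that of probe set E, turned to 0.09 without theca medium replicate 1. LAMC1 probe set A gave -0.62 ± 0.34 in large against small granulosa (adjusted p = 0.44) and -0.89 ± 0.34 in large against small theca (unadjusted p = 0.0213, adjusted p = 0.411).

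None of the other genes passed in theca either. NID1 gave -0.74 ± 0.40 in large against medium theca, with both large arrays (517.7 and 308.4) below both medium arrays, as for 21.9% of all tested probe sets. LAMA4 gave -0.62 ± 0.41 in large against small theca and LAMB1 -0.53 ± 0.48, and in each the large arrays did not overlap the small ones, as a lower signal in 23.6% of all tested probe sets. The endothelium sums were 1320 and 1718 in small, 1453 and 1692 in medium and 453.3 and 844.2 in large theca, lowest on the large arrays. The median change of the 8 tested endothelium markers between large and small theca was -0.96, with none past the test. Pericyte and smooth muscle sums were 10740 and 13040 in small and 16160 and 21480 in large theca. Fibroblast sums were 27080 and 31330 in small and 22880 and 26530 in large theca. The summed signal of 10 granulosa markers was higher on the large theca arrays, at 17850 and 24730 in large against 9222 and 10170 in small theca. Of these 10 markers CYP19A1 and INHBA, the aromatase and an inhibin and activin subunit, were called higher, where 0.0343% of all tested probe sets were called. The median change of the 10 was 0.14, and others went the other way. AMH gave 52.5 and 81.4 in large against 129.9 and 172 in small theca, and KRT18 137.6 and 56.7 against 292.5 and 221.4. The part of any of these cell types in the theca values was not tested.

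**Figure D4:**
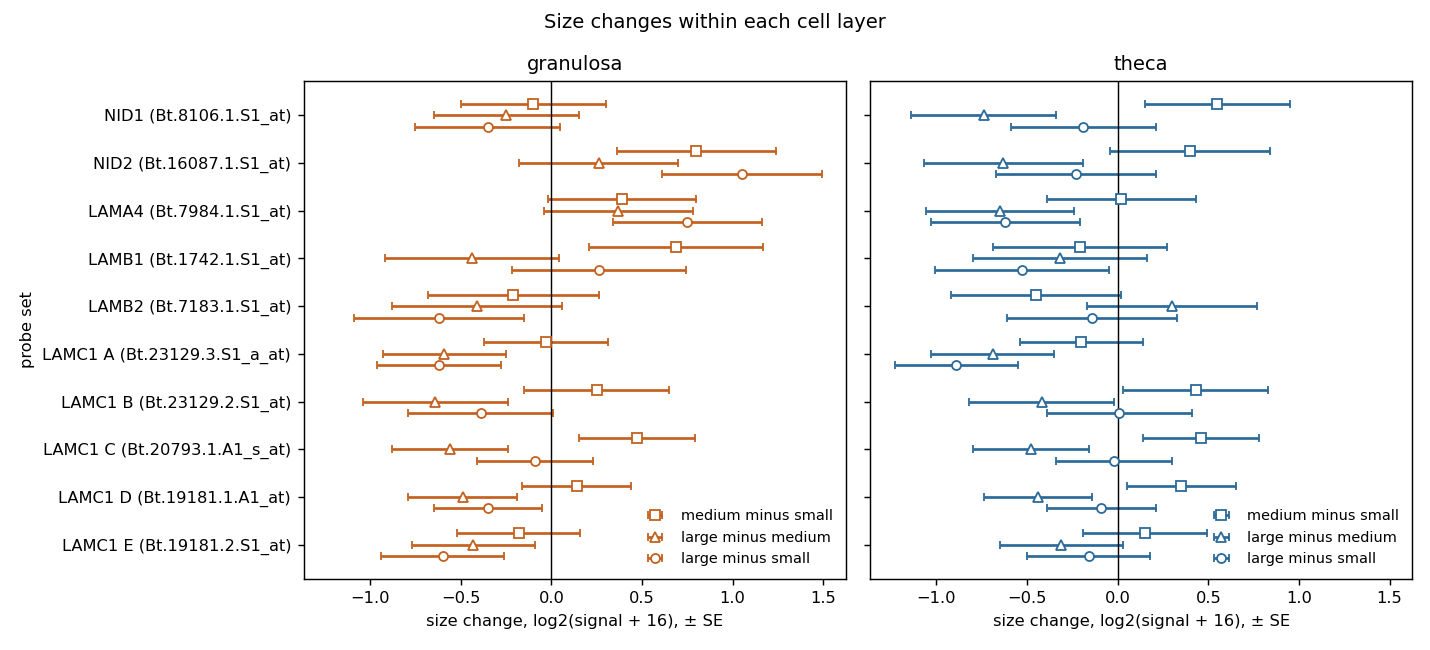
Change in log2(signal + 16) with size, with standard error, for the 10 tested probe sets in granulosa (left) and theca (right): medium minus small (squares), large minus medium (triangles) and large minus small (circles). No value passed an adjusted p of 0.05; the 5 LAMC1 triangles lie between -0.64 and -0.43 in granulosa and between -0.69 and -0.31 in theca, and the NID2 circle in granulosa is at 1.05.

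Whether size acted differently in the layers was tested as the large minus small change in granulosa minus that in theca. LAMA4 gave values of opposite sign, 0.75 ± 0.41 in granulosa and -0.62 ± 0.41 in theca. In each layer its large and small arrays did not overlap, as for 21.9% of all tested probe sets upward in granulosa and 23.6% downward in theca. Both small granulosa signals (10.4 and 2.0) and that of large replicate 2 (13.3) were under the filter signal. The granulosa change ran from 0.28 to 1.85 over the alternatives listed below that left out no single array. The difference between the layers was 1.37 ± 0.58 (unadjusted p = 0.033, adjusted p = 0.431). NID2 gave a difference of 1.28 ± 0.62 (adjusted p = 0.494). None of the 10 probe sets was called by limma, where 0.0114% of all tested probe sets were called, and 1 had an unadjusted p under 0.05, as had 10.5% of all tested probe sets. In the same comparison the median of the tested markers was 1.53 for endothelium, 0.62 for fibroblasts and -0.54 for pericytes and smooth muscle. It was -0.19 for theca steroid cells, 3.13 for leukocytes, 1.9 for red cells and -0.68 for granulosa. The median over all tested probe sets was 0.07. No marker passed the test, and the part of these cells in the differences was not tested. The narrower layer differences of NID2 and LAMA4 in large follicles than in small ones thus did not pass the test.

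Other basement membrane genes were read from a list of 29, of which 14 had a probe set and 13 were tested, each by its brightest probe set. Over all sizes 5 of the 13 were called lower in granulosa and 1 higher, at a median of -0.28. Of all tested probe sets 11% were called lower and 13.2% higher, at a median of 0.1. EGFLAM (pikachurin), a laminin-G domain protein known from the mouse retina, where it binds dystroglycan, gave 23.2 to 39.6 in granulosa and 547.5 to 2446.3 in theca, a change of -4.62 ± 0.19. COL15A1, a collagen of the zone between basement membrane and stroma, changed by -4.13 ± 0.27. FBLN1 (fibulin 1, -3.14 ± 0.19), the small proteoglycan BGN (-2.27 ± 0.24) and COL4A1, a chain of the common collagen IV network (-1.74 ± 0.24), were lower too. NTN4, a netrin that binds laminin gamma chains, was higher in granulosa by 0.90 ± 0.25 (adjusted p = 0.0197). Its call was lost without granulosa small replicate 1 (0.0586), granulosa medium replicate 1 (0.0576) or theca large replicate 1 (0.0611). HSPG2 (perlecan), which links nidogen and laminin, gave 188.7 to 466.7 in granulosa and 135.1 to 377.7 in theca and was not called (0.44 ± 0.24).

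Within a size, 5 of the 13 were lower in granulosa in small follicles, 5 in medium follicles and 3 in large follicles (COL15A1, FBLN1 and EGFLAM), with none higher. Of all tested probe sets 4.98%, 4.09% and 2.34% were called lower in small, medium and large follicles. The shares called higher were 3.97%, 1.71% and 1.91%. Without theca large replicate 1 a single gene was called in large follicles. With growth, 1 of the 13 was called in 1 comparison: COL4A4, a chain of a specialised collagen IV network, was lower in large than in small granulosa. In that comparison 2.16% of all tested probe sets were called. It gave 35.4 and 16.7 in large against 126.1 and 125.7 in small granulosa, a change of -1.79 ± 0.43 (adjusted p = 0.0469). The call was at the threshold, and without 1 array the adjusted p of COL4A4 ran from 0.0141 to 0.251 and was under 0.05 only without theca small replicate 1 or theca small replicate 2. Without granulosa large replicate 1 the change of COL4A4 was -2.12 (adjusted p = 0.142). The theca comparisons called none of the 13, but 3 in large against small theca when theca small replicate 2 was left out, a fit in which the calls over all probe sets were 591 in place of 6.

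Of 17 genes for laminin receptors and their partners, 12 had a probe set and 11 were tested, at a median of -0.04 over all sizes. Of the 11, 1 was called higher and 1 lower in granulosa, where 13.2% and 11% of all tested probe sets were. The integrin alpha 2 subunit ITGA2, part of a receptor for collagen and laminin, was higher in granulosa, at 17.3 to 221.9 in granulosa against 0.8 to 40.5 in theca (1.63 ± 0.27, adjusted p = 0.000736). It was under the filter signal on 5 of 6 theca arrays. The change of ITGA2 ran from 0.88 to 2.62 over the alternatives that left out no single array. In large follicles it was 1.16 and not called (limma, adjusted p = 0.18). The syndecan SDC2, a cell surface heparan sulfate proteoglycan, was lower in granulosa, at 86 to 241.4 in granulosa against 1231.1 to 1756.4 in theca (-3.01 ± 0.26, adjusted p = 2.51e-06). The shared integrin beta 1 subunit ITGB1 (-0.44 ± 0.21), the integrin alpha 3 subunit ITGA3 (0.11 ± 0.18) and dystroglycan, DAG1 (0.30 ± 0.18), were not called.

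**Figure D5:**
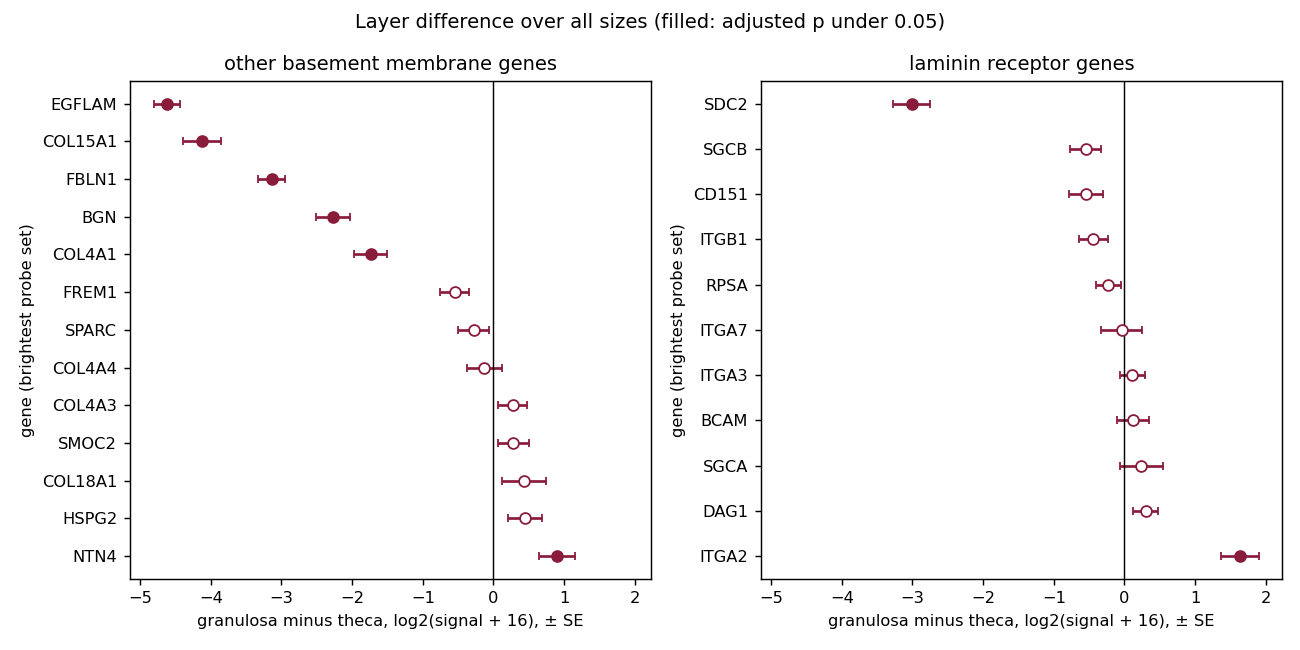
Granulosa minus theca change over all sizes in log2(signal + 16), with standard error, for 13 other basement membrane genes (left) and 11 laminin receptor genes (right), each by its brightest probe set; filled points passed an adjusted p of 0.05. EGFLAM (-4.62) and COL15A1 (-4.13) lie farthest to the left, and ITGA2 (1.63) farthest to the right.

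Genes whose pattern was most like that of each member were ranked by Pearson's r of log2(signal + 16) over the 12 arrays, as a description. The arrays of both layers enter, so an r of a gene that separates the layers mostly carries that separation. For NID1 the nearest were ADAMDEC1 (r = 0.991), NR2F2 (r = 0.99) and CAVIN2 (r = 0.988); within the 6 theca arrays ADAMDEC1 gave 0.96 and within granulosa 0.29. For LAMA4 the nearest were CALCRL (r = 0.985), NFIA (r = 0.976) and PLK2 (r = 0.973), with CALCRL at 0.89 in granulosa and 0.84 in theca. CDH11 was second for LAMB1 and first for NID2 (r = 0.925 for each), with SPATS2L (r = 0.942) and NR3C1 (r = 0.921) beside it for LAMB1 and PALMD and ARHGEF15 (r = 0.917 for each) for NID2. For LAMB2 and LAMC1 probe set A, which were not called between the layers, CRTC2 (r = 0.924) was nearest to LAMB2 and SELP (r = 0.874) to the LAMC1 probe set.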

How the data were processed

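Total RNA was labelled with biotin and read on 1-colour Affymetrix bovine arrays, per the labels. Each deposited value is the linear intensity of 1 probe set on 1 array; the software is not given in the sources used here. The authors had scaled the intensities, with a 2% trimmed mean of 125.03 to 125.04 on every array; array medians were 33.7 to 48.8. All 12 columns matched a sample, and 0 were left unmapped. Gene symbols came from the platform annotation, and all 13 members had an Entrez identifier in the ARS-UCD2.0 gene table.

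From these, log2(signal + 16) was computed, 112 control probe sets were left out, and a probe set was kept if the mean of at least 1 group exceeded 22.5. A limma fit (version 3.58.1, R 4.3.3) with 6 group means left 6 residual degrees of freedom (7.98 prior). There were 11 comparisons, adjusted by Benjamini-Hochberg within each. The number of arrays limits precision: an exact permutation test of 2 against 2 cannot go below 0.333. The fit was tested on simulated data. Figures used matplotlib 3.10.9 under Python 3.11.15.

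Every member is named; list genes are named where called, up to 6 with the largest change per comparison, with further ones chosen after their values were seen. For likeness the 3 genes with the highest r were taken. The members and the lists were chosen with earlier results of these data known. Alternatives were other constants (1 and 64), no filter, quantile normalization, median centring, a trend, a replicate block, fewer arrays and each array left out.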

Additional observations from a re-analysis of the deposited data

How the results depend on the processing

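The calls of NID1 over all sizes and in each size, of LAMA4 over all sizes and in small and medium follicles, and of LAMB1 and NID2 over all sizes kept their direction and side of the threshold under each of the 21 alternatives that gave them a value. In small follicles 2 of 10 probe sets were called with a constant of 1, in place of 4, and 2 to 4 when 1 array was left out. In large follicles 1 was called, in place of 2, with a constant of 1, without the filter, with only the arrays compared, and without both arrays that stand apart, an alternative chosen after seeing the data; leaving out 1 array gave 1 to 2. LAMA4 in large follicles is the value that decides this, at an adjusted p of 0.0141 to 0.242 under the alternatives that left out no single array. Leaving out 1 array gave 4 to 5 calls over all sizes, 2 to 3 in medium follicles and 0 in every size comparison. The call of the LAMC1 probe set B was lost with a constant of 1 (adjusted p = 0.0571). Among the values of these genes, signs turned for some that were not called. The LAMC1 probe set D gave -0.08 after quantile normalization, -0.05 after median centring and -0.03 to 0.07 without 1 array. Probe set A gave -0.02 after median centring and -0.07 to 0.17 without 1 array, probe set E 0 without both arrays that stand apart, and LAMB2 -0.13 to 0.42 without 1 array. In large against medium theca, probe set E gave -0.31 as reported and -0.71 to 0.09 without 1 array. The cause of these shifts was not tested. In large follicles the median layer change of all probe sets was 0.13 as deposited, 0.02 after quantile normalization and -0.09 after median centring. The share of calls higher in granulosa there was 45%, 33.8% and 25.3%, and the counts over all probe sets ran from 192 to 990 without 1 array, against 743. With the replicate number as a block the member counts were 5 over all sizes, 4 in small follicles, 2 in medium and 2 in large, as without it. The labels do not say that a number marks shared animals, and deviations of same-numbered arrays correlated between -0.33 and 0.40 across pairs of groups. Signals near the floor limit NID1 and LAMA4 in granulosa.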
